A study of Drosophila melanogaster with 12 samples.

Results

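The genes of the mitochondrial genome were followed through RNA immunoprecipitates of Drosophila melanogaster embryos of 1.5 to 3 h. The members are all genes whose symbol begins with mt: in both count tables. There were 37 of them, among 15682 genes in the table of the antibody experiment and 17559 in the table of the GFP-binder experiment. They comprise 13 protein-coding genes, 2 rRNA genes and 22 tRNA genes, which are described apart. In the antibody experiment, lysate of wild-type embryos was precipitated with Slam antibody (3 libraries) or with Dia antibody as control (4 libraries). Slam is a protein of the cellularization furrow and Dia is a formin that nucleates actin filaments. In the GFP-binder experiment, a single-chain GFP antibody was used on lysate of embryos with a genomic GFP-slam transgene, with GFP at the N-terminus of Slam (2 libraries, replicates 1 and 3), and on lysate of wild-type embryos labelled OrR (3 libraries). The libraries hold RNA bound in cleared embryo lysate, from whole embryos, so that fewer mitochondria in a precipitate and less RNA per mitochondrion cannot be told apart. The methods describe the replicates as biological.

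The mitochondrial genome of animals encodes core subunits of the respiratory chain, which reduces oxygen, and of the ATP synthase that it drives. In flies both strands are transcribed into long precursors, which are cut mainly at the tRNAs that lie between the mRNAs. The mRNAs are polyadenylated and translated by ribosomes inside the organelle, whose own rRNAs come from the same genome, while all their proteins and most respiratory subunits are encoded in the nucleus. Early embryos rely on mitochondria that the mother loaded into the egg.

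The members lie close together on the mitochondrial genome. In RefSeq (Release 6 plus ISO1 MT) the first protein-coding gene, mt:ND2, spans positions 240 to 1263. It is followed by mt:CoI (1474 to 3009), mt:CoII (3083 to 3767), mt:ATPase8 (3907 to 4068), mt:ATPase6 (4062 to 4736), mt:CoIII (4736 to 5524) and mt:ND3 (5608 to 5961). Then come mt:ND5 (6409 to 8125), mt:ND4 (8207 to 9545), mt:ND4L (9545 to 9835), mt:ND6 (9971 to 10495), mt:Cyt-b (10499 to 11635), mt:ND1 (11721 to 12659), mt:lrRNA (12735 to 14058) and mt:srRNA (14131 to 14916). None of these genes has an intron. By textbook knowledge mt:ND5, mt:ND4, mt:ND4L, mt:ND1 and both rRNAs are read from the other strand than the remaining mRNAs. mt:ATPase8 and mt:ATPase6 share 7 bases, while mt:ATPase6 shares 1 base with mt:CoIII and mt:ND4 1 base with mt:ND4L. How reads in such overlaps, and reads that fit several places, were counted is not given in the sources used here.

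Library totals ranged from 4383704 (Dia antibody 3) to 47249817 counts (GFP-slam 3). The targeted transcript checked the labels. Mean slam levels were 62599 CPM with Slam antibody against 803 with Dia antibody, and 11193 in GFP-slam against 687 in wild type. CPM are counts scaled to a common library size after TMM normalization within an experiment. The embryonic stage was checked by markers. Of the blastoderm genes other than slam, mean levels over the 4 groups ran from 628 to 1017 CPM for kuk, 125.8 to 148 for Kr, 31.5 to 170 for nullo, 16.1 to 31.8 for ftz and 2.70 to 4.51 for eve. Sry-alpha had 402 and 344 CPM with Slam and Dia antibody but 0.0230 and 0 in wild type and GFP-slam with the GFP-binder. The 7 eggshell genes summed to at most 0.983 CPM in any library, with Cp16, Cp19 and Vm26Ab at 0 throughout. The 5 genes of differentiated cells of later embryos (Mhc, wupA, Act57B, repo and elav) each had a mean of at least 1.03 CPM in every group, and summed to between 43.2 CPM (GFP-slam 1) and 1907 CPM (Dia antibody 1).

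Mitochondrial transcripts were scarce in all antibody precipitates and plentiful in all GFP-binder precipitates. With Slam antibody they took 0.00210%, 0.0322% and 0.0169% of the counts in replicates 1 to 3. With Dia antibody they took 0.00293%, 0.0175%, 0.0106% and 0.00854% in replicates 1 to 4. In wild type with the GFP-binder they took 0.793%, 0.458% and 0.768%, and in GFP-slam 0.365% and 0.775%. With Slam antibody, the lowest share (0.00210%) lay below all Dia antibody shares and the highest (0.0322%) lay above them. Only the share of replicate 3 (0.0169%) lay within the Dia range. GFP-slam 1 (0.365%) lay below all wild-type shares, and GFP-slam 3 (0.775%) lay within their range. The exact 95% counting interval was widest, relative to its value, in Dia antibody 1, from 0.00266% to 0.00322%. Counting error, which is all that such intervals cover, was thus small beside the spread between replicates.

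**Figure D1:**
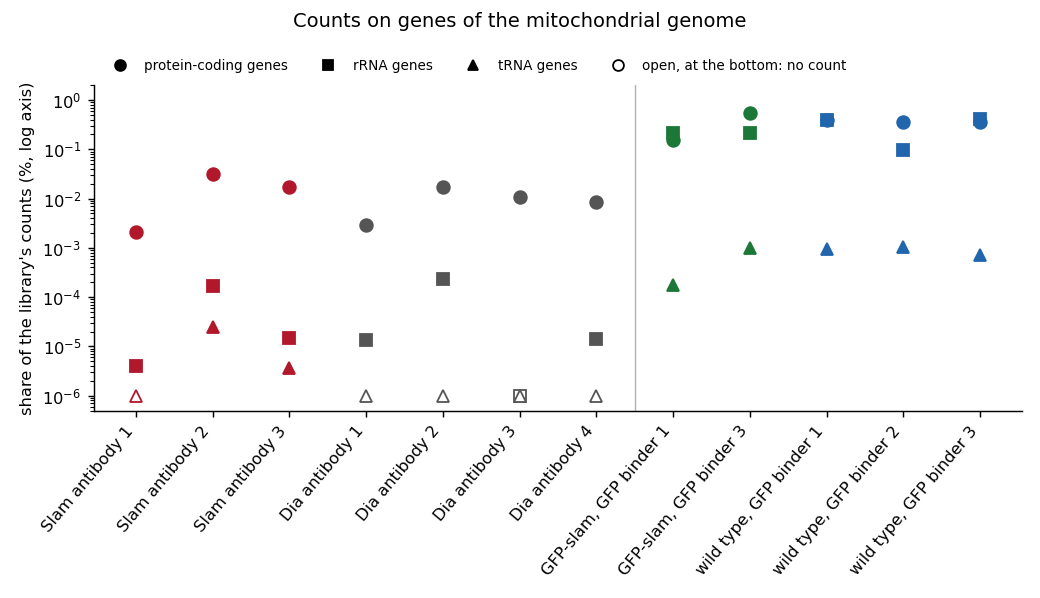
Share of each library's counts on mitochondrial protein-coding (circles), rRNA (squares) and tRNA genes (triangles), in percent on a log axis, with Slam antibody in red, Dia antibody in grey, GFP-slam in green and wild type with the GFP-binder in blue. Open symbols at the bottom mark classes with no count. All 7 antibody libraries lie at or below 0.0322% for every class, and the protein-coding and rRNA shares of all 5 GFP-binder libraries lie above that.

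The classes differed in how far apart the experiments lay. The mean share of all members was 68.1-fold higher in wild type with the GFP-binder than with Dia antibody, both of which are control precipitates of wild-type lysate. It was 37.5-fold higher for the protein-coding genes and 4579-fold higher for the rRNA genes, or 33016-fold without Dia antibody 2. The rRNAs made up 0 to 1.36% of the mitochondrial counts in the antibody libraries. In the GFP-binder libraries they made up 50.7%, 20.9% and 54.2% (wild type) and 58.4% and 27.9% (GFP-slam). These levels were normalized within each experiment. The matrix, the preparation and the counting of the tables cannot be told apart in this difference. Among 6612 nuclear genes at or above 5 CPM in either control, the median level in wild type over that in Dia libraries was 0.981, and 92.9% lay within 2-fold. Some nuclear genes were nearly or wholly without counts in 1 of the tables. 13 nuclear genes were at 0 in the Dia libraries but at 20 CPM or more in wild type, and 26 were the other way round. Sry-alpha, which was not among these, had a mean of 344 CPM in the Dia libraries and 0.0230 CPM in wild type.

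The nuclear partners of these genes lay closer together between the experiments. A list of 68 nuclear genes for subunits of the respiratory complexes summed to between 8913 and 11854 CPM in the antibody libraries and to between 12238 and 14976 CPM in the GFP-binder libraries. The 13 mitochondrial protein-coding genes summed to between 24.9 and 311 CPM in the former and to between 1667 and 5091 CPM in the latter. Their sum was therefore 0.00268 to 0.0325 of that of the nuclear list in the antibody libraries and 0.115 to 0.340 in the GFP-binder libraries. For complex IV, cytochrome c oxidase, the sum of mt:CoI, mt:CoII and mt:CoIII was 0.0200 to 0.280 of the sum of its 9 listed nuclear subunits in the antibody libraries. In the GFP-binder libraries it was 1.02 to 4.13 of that sum.

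The single members spread widely in the same comparison of control libraries. mt:lrRNA, the large rRNA, had a mean of 2895 CPM in wild type and 0.595 CPM in Dia libraries, a ratio of 4868 that 3 of 6626 genes exceeded. Dia antibody 2 held 33 of its 38 counts in the Dia libraries, and without that library the ratio was 31025, on 5 counts. Among the mRNAs the ratio was 11.6 for mt:ND1, 15.1 for mt:ND2, 19.4 for mt:CoII, 35.4 for mt:CoI, 50.8 for mt:ATPase6, 64.9 for mt:ND4 and 72.1 for mt:CoIII. It was 189 for mt:ND5 and 247 for mt:Cyt-b. mt:ND3 and mt:ND4L had no count in the Dia libraries, and were at least 415-fold and 185-fold higher in wild type when 3 counts over the group are taken as the limit. Without Dia antibody 3 the ratio was 41.8 for mt:ND2 and 108 for mt:CoIII. These ratios between the experiments carry no test.

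The subunits of complex IV were the leading mRNAs. mt:CoI, mt:CoII and mt:CoIII form the catalytic core of the enzyme, and together they took 79.3% to 94.9% of the protein-coding counts over all 12 libraries. They held the first 3 places per kilobase in every library except Dia antibody 1, where mt:ND1 (2.82 CPM per kb) lay above mt:CoIII (2.56 CPM per kb). Levels between genes are compared per kilobase of gene. In wild type with the GFP-binder, mt:CoI had 1283 ± 107 CPM per kb (SD, n = 3), mt:CoIII 883 ± 69.6 and mt:CoII 501 ± 51.3, and these 3 ranges did not overlap. mt:ATPase6, a membrane subunit of ATP synthase, followed with 178 ± 53.4 CPM per kb, and mt:Cyt-b, the mitochondrial subunit of complex III, with 165 ± 30.9. Their ranges overlapped. The complex I subunits were lower, in the order mt:ND4 (102 ± 33.2 CPM per kb), mt:ND5 (68.5 ± 17.9), mt:ND3 (62.9 ± 4.24), mt:ND4L (34.1 ± 3.18), mt:ND1 (34.0 ± 18.9), mt:ND2 (28.2, from 23.7 to 35.5) and mt:ND6 (13.6 ± 1.87). Of these neighbours, mt:ND3 lay above mt:ND4L and mt:ND2 above mt:ND6 in all 3 libraries without overlap, while the other neighbours overlapped. mt:ATPase8, the smallest gene of the group, was lowest with 2.70 ± 1.32 CPM per kb. Its length of 162 bases leaves little room for a read, and a level per kilobase is least sure for such a gene. mt:lrRNA had 2187 ± 1299 CPM per kb and overlapped mt:CoI. mt:srRNA, the small rRNA, had 165 ± 76.6 and overlapped its neighbours mt:Cyt-b and mt:ND4.

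**Figure D2:**
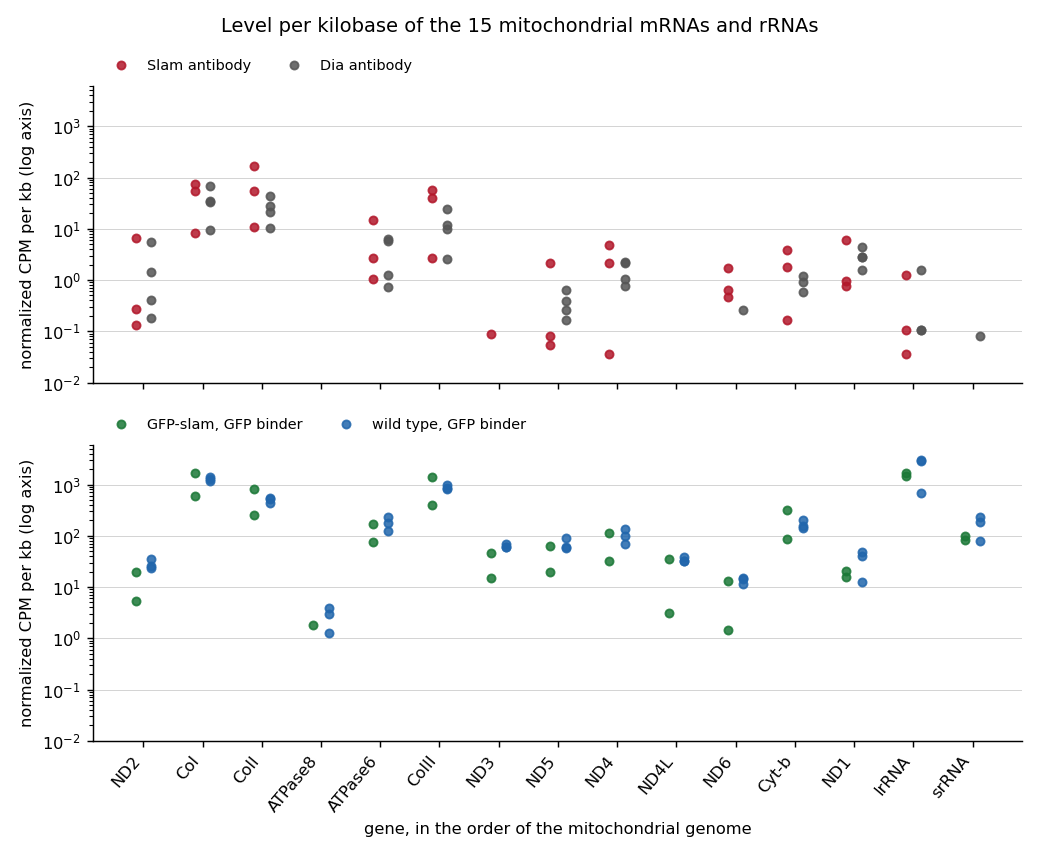
Level of the 13 protein-coding and 2 rRNA genes in each library, in TMM-normalized CPM per kb of gene on a log axis, with genes in their order on the mitochondrial genome and 1 point per library; genes without a count are not drawn. mt:CoI, mt:CoII and mt:CoIII are the highest mRNAs in every library except Dia antibody 1, where mt:ND1 (2.82 CPM per kb) is above mt:CoIII (2.56), and mt:lrRNA reaches 2989 CPM per kb with the GFP-binder but 1.59 at most with an antibody.

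The antibody libraries held a similar leading group but other proportions below it. On average mt:CoII was first with Slam antibody (76.8 CPM per kb) and mt:CoI with Dia antibody (36.3 CPM per kb). The counts of mt:CoII were 0.575, 0.992 and 0.442 of those of mt:CoI with Slam antibody and 0.486, 0.284, 0.283 and 0.370 with Dia antibody. They were 0.183, 0.141 and 0.203 in wild type with the GFP-binder and 0.188 and 0.220 in GFP-slam. Every antibody library thus had a higher ratio of these transcripts than every GFP-binder library, and Slam antibody 3 lay within the range of the Dia libraries. mt:Cyt-b was the other way round. Its counts were at most 0.0708 of those of mt:CoI in the antibody libraries, with none in Dia antibody 3, and at least 0.0757 in the GFP-binder libraries. The value of 0.0708 is that of Dia antibody 1 and rests on 15 counts against 212, too few to part it from 0.0757. The next antibody library, Slam antibody 2, had 0.0392. Complex I genes took 2.72% to 15.1% of the protein-coding counts in the antibody libraries and 6.24% to 11.7% in the GFP-binder libraries. Several members were missing altogether. mt:ND4L and mt:ATPase8 had no count in any antibody library, and mt:ND3 had 1 count, in Slam antibody 2.

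The comparison of Slam with Dia antibody asks which RNAs are bound with Slam. Of the 37 members, 6 reached the mean normalized count of 50 that this experiment was tested at, all of them protein-coding. edgeR's quasi-likelihood test with Benjamini-Hochberg adjustment over 7466 genes called 0 of these 6 at 0.05, where it called 10.5% of all genes. None had an unadjusted p under 0.05, where 2179 of the 7466 genes did, and DESeq2 also called 0. The log2 enrichment, Slam over Dia antibody, was positive for 5 of the 6 and had a median of 0.74, beside −0.03 over all genes tested. The groups overlapped for each of the 6, where they did not for 27.4% of genes. The other 31 members did not reach the minimum.

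The largest of these values was that of mt:CoII (FBgn0013675), which encodes the subunit that takes electrons from cytochrome c. It had 7.45, 113 and 37.0 CPM with Slam antibody in replicates 1 to 3 and 7.18, 29.7, 14.47 and 19.4 CPM with Dia antibody in replicates 1 to 4. The Slam libraries thus held both the highest and the second lowest value. The log2 enrichment was 1.57 (SE 0.884), with a 95% interval from −0.56 to 3.70 and an adjusted p of 0.291 from edgeR. An exact two-sided permutation test of the CPM gave p = 0.286, where 0.0571 is the smallest that 3 against 4 libraries allow. mt:CoIII had 2.13, 45.5 and 31.8 CPM with Slam antibody and 2.02, 9.54, 19.4 and 7.73 CPM with Dia antibody. Its log2 enrichment was 1.49 (SE 1.02, adjusted p = 0.377 by edgeR), again with overlap between the groups. mt:CoI, the largest catalytic subunit, had 12.9, 114 and 83.7 CPM with Slam antibody and 14.8, 104, 51.2 and 52.4 CPM with Dia antibody. Its log2 enrichment of 0.34 (SE 0.848) had a 95% interval from −1.71 to 2.39, so that neither a change of 2-fold up nor of 2-fold down lies outside it.

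The remaining genes tested here were close to the minimum. mt:ATPase6 had 0.711, 10.1 and 1.84 CPM with Slam antibody and 0.488, 3.88, 4.23 and 0.843 CPM with Dia antibody (log2 0.89, SE 0.995). mt:ND4 had 0.0474, 6.32 and 2.94 CPM with Slam antibody and 1.05, 3.05, 2.89 and 1.41 CPM with Dia antibody (log2 0.59, SE 1.03). mt:ND1 had 0.711, 5.68 and 0.900 CPM with Slam antibody and between 1.50 and 4.23 CPM with Dia antibody (log2 −0.15, SE 0.853). In each of these genes Slam antibody 2 was the highest of all 7 libraries, and in mt:ND4 and mt:ND1 Slam antibody 1 was the lowest.

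Replicate 1 was low with both antibodies. It was the lowest library of its group for all 6 genes with Slam antibody. With Dia antibody it was the lowest for mt:CoI, mt:CoII, mt:CoIII, mt:ATPase6 and mt:ND4, while Dia antibody 4 was the lowest for mt:ND1. Slam antibody 2 exceeded Slam antibody 1 in all 6 genes by 7.98-fold to 133-fold (median 14.7-fold), and Dia antibody 2 exceeded Dia antibody 1 in all 6 by 1.01-fold to 7.95-fold (median 4.43-fold). The 5 genes of later embryos summed to 218, 578 and 139 CPM with Slam antibody and 1907, 671, 179 and 148 CPM with Dia antibody, and their part in these levels was not tested. The variation of the members between replicates was large for their experiment. Their biological coefficients of variation in edgeR ran from 0.589 to 0.881, which is at the 92.4th to 98.5th percentile of all genes tested, around a median of 0.251.

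Taking the replicate number as a block compares Slam and Dia antibody within numbers 1 to 3, and leaves Dia antibody 4 without a partner. With this block edgeR called mt:CoII (log2 1.15, SE 0.344, adjusted p = 0.0397), so that 1 of the 6 members passed (16.7%), where 1418 genes (19.0% of all tested) did. The level of mt:CoII with Slam over that with Dia antibody was 1.04 in replicate 1, 3.82 in replicate 2 and 2.56 in replicate 3. mt:CoIII had 1.06, 4.77 and 1.64 (log2 1.07, adjusted p = 0.0999), and mt:CoI had 0.876, 1.10 and 1.63 (log2 0.22, adjusted p = 0.528). The values of mt:ND4 (−0.46) and mt:ND1 (−1.01) were negative with the block. The call of mt:CoII therefore rests on the pairing of the libraries by their number. That pairing is uncertain for number 3, as Slam antibody 3 correlated more strongly with Dia antibody 4 (r = 0.346) than with Dia antibody 3 (r = 0.106).

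**Figure D3:**
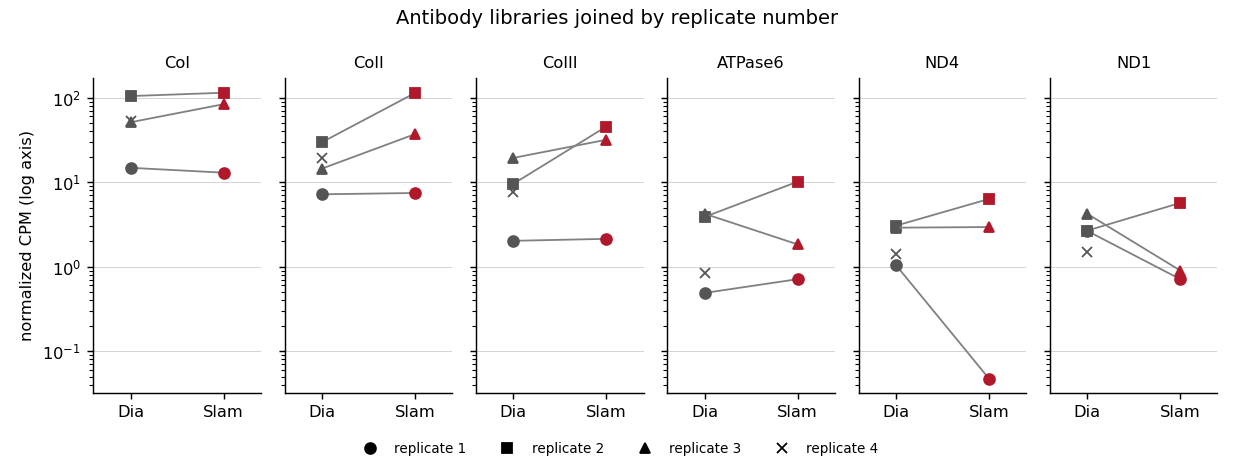
Levels of the 6 members tested in the antibody experiment, in TMM-normalized CPM on a log axis, with Dia antibody in grey and Slam antibody in red; lines join libraries of the same replicate number and the cross is Dia antibody 4. Replicate 1 is low with both antibodies for mt:CoI, mt:CoII and mt:CoIII, and the line of mt:CoII rises by 1.04-fold, 3.82-fold and 2.56-fold.

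The comparison of GFP-slam with wild type asks the same question with another bait and matrix. Here 21 members reached the mean normalized count of 10, namely all 13 protein-coding genes, both rRNA genes and 6 of the 22 tRNA genes. edgeR with Benjamini-Hochberg adjustment over 8767 genes called 0 of the 21, where it called 0.753% of all genes. DESeq2 called 0 as well. By edgeR 1 member, mt:ND3, had an unadjusted p under 0.05, where 522 of the 8767 genes did. The log2 enrichment, GFP-slam over wild type, was negative for 18 of the 21. Its median was −0.71 over the 13 protein-coding genes, beside 0.02 over all genes tested. The groups did not overlap for mt:ND2, mt:ND3 and mt:tRNA:A, all lower in GFP-slam. This is 14.3% of the members tested, where 17.4% of all genes did not overlap and 8.42% were lower without overlap.

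Among complex IV genes, mt:CoI had 1940.3, 2147 and 1823 CPM in wild type and 923 and 2584 CPM in GFP-slam. The GFP-slam libraries lay on either side of wild type. Its log2 enrichment was −0.17 (SE 0.396), with a 95% interval from −1.05 to 0.72. mt:CoII had 355, 304 and 371 CPM in wild type and 174 and 569 CPM in GFP-slam (log2 0.11, SE 0.437). mt:CoIII had 760 CPM, 659 and 672 in wild type and 316 and 1120 CPM in GFP-slam (log2 0.04, SE 0.455). The intervals of mt:CoII (−0.87 to 1.10) and mt:CoIII (−0.98 to 1.07) include a 2-fold rise, which is 1 on the log2 scale, and end short of a 2-fold fall. Each of the 3 genes thus had its lowest and its highest value in GFP-slam.

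The complex I genes were lower on average in GFP-slam, without passing the test. mt:ND3 (FBgn0013681) had 24.0, 21.8 and 21.1 CPM in wild type and 5.41 and 16.2 CPM in GFP-slam, without overlap (log2 −1.04, SE 0.414, unadjusted p = 0.0319 and adjusted p = 0.664 by edgeR). mt:ND2 had 36.4, 25.9 and 24.3 CPM in wild type and 5.49 and 20.3 CPM in GFP-slam (log2 −1.16, SE 0.513, adjusted p = 0.883). For both genes an exact two-sided permutation test gave p = 0.2, the smallest that 2 against 3 libraries allow. Without the minimum of counts, edgeR gave mt:ND2 an adjusted p of 0.0231 at the same log2 value of −1.16. It was then 1 of 36 members tested to pass, where 121 genes in all were called higher and 165 lower. The number of genes tested in that fit is not given here. The share of members called can therefore not be set beside that of all genes. mt:ND4 (log2 −0.47), mt:ND5 (−0.71), mt:ND4L (−0.83), mt:ND6 (−0.90) and mt:ND1 (−0.89) overlapped between the groups and had adjusted p-values that round to 1. mt:Cyt-b had 228, 162 and 173 CPM in wild type and 98.4 and 366 CPM in GFP-slam (log2 0.31, SE 0.484). Of the ATP synthase genes, mt:ATPase6 had a log2 value of −0.53 (SE 0.381). mt:ATPase8 had 10, 18 and 6 counts in wild type and 0 and 15 counts in GFP-slam (log2 −1.50, SE 1.22).

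**Figure D4:**
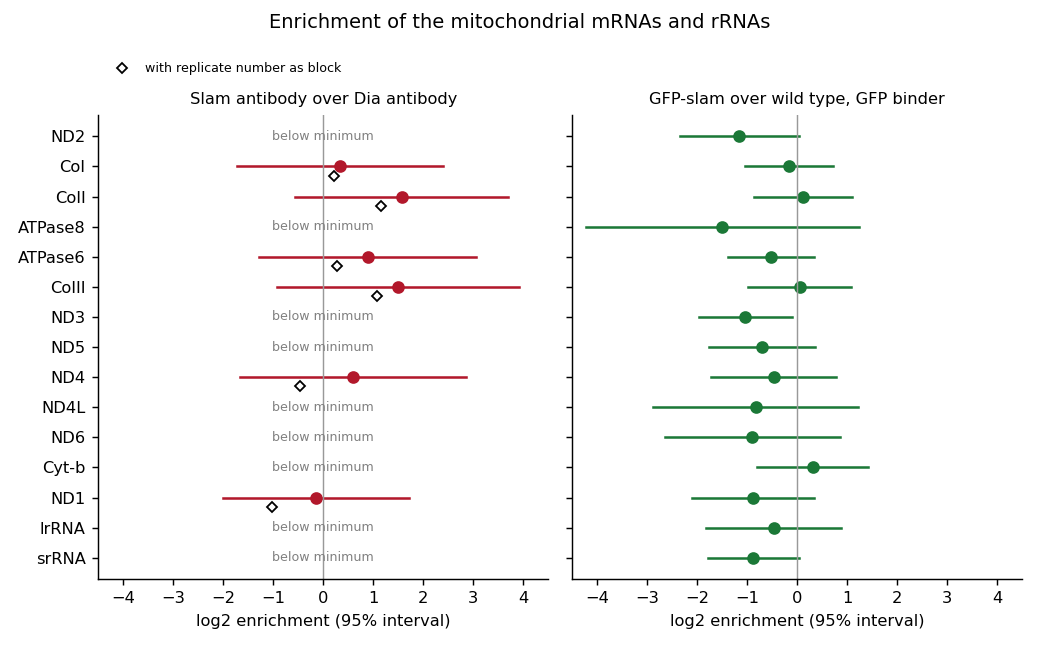
Log2 enrichment of the 13 protein-coding and 2 rRNA genes with its 95% interval from edgeR, for Slam over Dia antibody (left, 3 against 4 libraries) and GFP-slam over wild type (right, 2 against 3), where positive values are higher with Slam or GFP-slam. Diamonds give the antibody values with the replicate number as a block, and "below minimum" marks genes that were not tested; the only interval without 0 is that of mt:ND3, from −1.97 to −0.11, and it did not pass after adjustment.

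The 2 GFP-slam libraries lay far apart. For 12 of the 13 protein-coding genes GFP-slam 1 lay below all wild-type libraries, as did 21.8% of all genes tested, and mt:ND1 lay within their range. GFP-slam 3 lay above all wild-type libraries for mt:CoI, mt:CoII, mt:CoIII and mt:Cyt-b, below them for mt:ND2 and mt:ND3, and within their range for the other 7. Of all genes tested, 23.1% lay above and 26.3% below. It exceeded GFP-slam 1 in all 12 protein-coding genes counted in both, by 1.34-fold (mt:ND1) to 11.0-fold (mt:ND4L) and by 3.41-fold at the median. The rRNAs did not share this. mt:lrRNA had 2267 CPM in GFP-slam 1 and 1906 in GFP-slam 3, and mt:srRNA 76.7 and 64.1 CPM. Without GFP-slam 3 the median log2 enrichment of the protein-coding genes was −1.49, and without GFP-slam 1 it was −0.05. Either fit leaves a single GFP-slam library, so that only effect sizes are given. The 5 genes of later embryos summed to 43.2 CPM in GFP-slam 1 and 368 CPM in GFP-slam 3, and to 87.9, 104 and 296 CPM in wild type. Their part in this difference was not tested.

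The rRNAs varied in another library. mt:lrRNA (FBgn0013686) had 3818, 911 and 3957 CPM in wild type, and mt:srRNA had 145, 62.8 and 180.1 CPM. Wild type 2 was thus the lowest of the 5 libraries for both. The log2 enrichment was −0.47 (SE 0.574) for mt:lrRNA and −0.88 (SE 0.405, adjusted p = 0.887 by edgeR) for mt:srRNA. The low values of wild type 2 extended to mt:ND1, which lies beside the rRNAs on the same strand, with 38.4, 11.9 and 45.7 CPM. The level in wild type 2 over the mean of the other wild-type libraries was 0.283 for mt:ND1, 0.234 for mt:lrRNA and 0.387 for mt:srRNA, and 2.66%, 2.13% and 4.15% of genes lay lower. For the other 11 protein-coding genes with more than 100 counts it ranged from 0.615 (mt:ATPase6) to 1.17 (mt:ND4L). mt:Cyt-b, next to mt:ND1 but on the opposite strand, had 0.811. The other genes on the strand of the rRNAs had 0.810 (mt:ND5), 0.991 (mt:ND4) and 1.17 (mt:ND4L). The low values were thus not shared by that whole strand. Within each GFP-binder library the counts of mt:lrRNA were 14.497 to 29.7 times those of mt:srRNA, with wild type 2 the lowest.

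**Figure D5:**
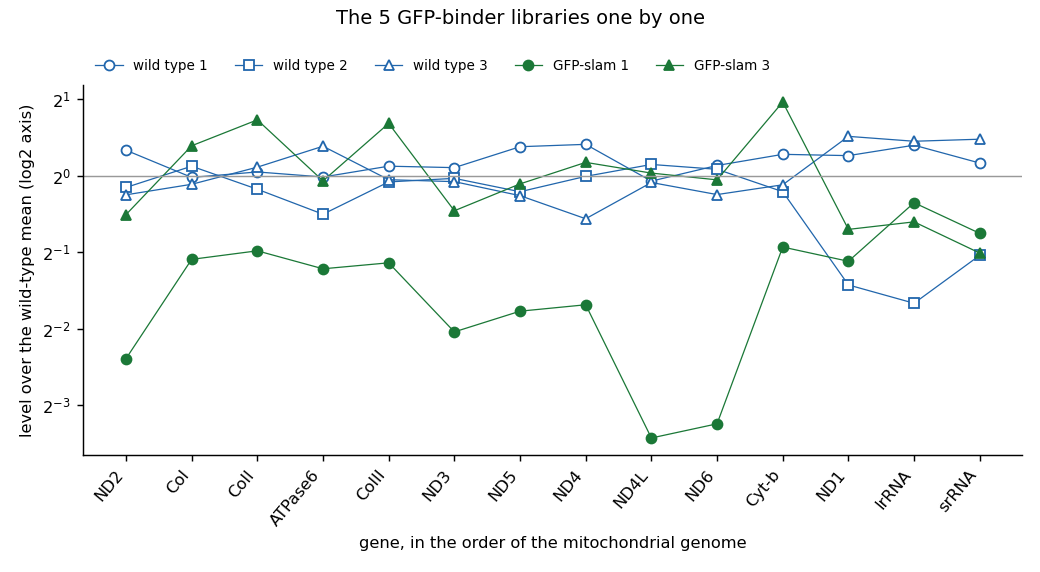
Level of 12 protein-coding and 2 rRNA genes in each GFP-binder library over the wild-type mean of that gene, on a log2 axis, with genes in their order on the mitochondrial genome (wild type in blue, GFP-slam in green, mt:ATPase8 left out for its few counts). GFP-slam 1 lies lowest from mt:ND2 to mt:Cyt-b, and wild type 2 falls to 0.372, 0.315 and 0.486 of the mean at mt:ND1, mt:lrRNA and mt:srRNA.

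The tRNAs were rare in the counts throughout. Their genes are 61 to 73 bases long, which leaves little room for a read, so that few counts need not mean few molecules. The antibody libraries held 9 counts on tRNA genes, 8 in Slam antibody 2 and 1 in Slam antibody 3, all on mt:tRNA:A. The other 21 tRNA genes had none in any of the 7 libraries. With 0 tRNA counts, a share of up to 6.84e-05% would be allowed in Dia antibody 3, the shallowest library. The GFP-binder libraries held 1250 counts on 21 of the 22 genes, and mt:tRNA:W alone had none. Of these counts, 67.2% fell on mt:tRNA:K (360 counts), mt:tRNA:Y (193), mt:tRNA:A (151) and mt:tRNA:C (136), while 12 genes had 14 counts or fewer. mt:tRNA:C lies in RefSeq across the end of mt:tRNA:W and shares 8 bases with it. The 4 leading genes had 2.79, 2.94 and 1.59 CPM (mt:tRNA:K), 1.86, 1.31 and 0.642 CPM (mt:tRNA:Y), 1.27, 1.83 and 1.15 CPM (mt:tRNA:A) and 1.03, 0.932 and 0.676 CPM (mt:tRNA:C) in wild type. In GFP-slam 1 they had 0.948, 0.0558, 0.0279 and 0.139 CPM, and in GFP-slam 3 they had 2.64, 1.85, 0.714 and 1.22 CPM. GFP-slam 1 was the lowest of the 5 libraries for each of the 4. Of the 6 tRNA genes tested, 0 passed (edgeR, each adjusted p rounding to 1), with log2 values from −1.89 (mt:tRNA:A) to −0.35 (mt:tRNA:C).

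The experiments were also set against each other in a joint fit, for the members that reached its minimum. The log2 enrichment with Slam antibody minus that with GFP-slam was 1.42 (SE 1.25) for mt:CoII, 1.45 (SE 1.44) for mt:CoIII, 0.48 (SE 1.17) for mt:CoI and 1.76 (SE 2.04) for mt:ND2. It was 1.55 for mt:ATPase6, 0.79 for mt:ND1 and 1.12 for mt:ND4. edgeR called 0 of these 7 members, with adjusted p-values from 0.579 upwards and none under 0.05 before adjustment, where it called 3.25% of 7349 genes. The smallest adjusted p was that of mt:CoII.

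Nuclear genes of the same complexes were listed beside the members and tested gene by gene, with no test of a list as a whole. Of the 68 respiratory genes, 67 are in the antibody table and 66 were tested there, of which 1 rose and 3 fell, where 6.84% of all genes rose and 3.62% fell. CG14482, a small subunit of complex III (UQCR-6.4), had 44.4 ± 11.4 CPM (SD, n = 3) with Slam antibody and 19.8 ± 4.36 (n = 4) with Dia antibody (log2 1.16, edgeR adjusted p = 0.0159). The ATP synthase genes ATPsyn-Cf6 (log2 −1.001, adjusted p = 0.00896), l(1)G0230 (−0.72, 0.0478) and ATPsyn-d (−0.71, 0.0452) fell with Slam antibody. The median log2 value of the 66 was −0.25, beside 0.74 over the 6 mitochondrial genes tested, of which 0 passed. The latter ran from 0.33 to 1.24 when 1 library was left out. The difference between the 2 medians was not tested. In the GFP-binder experiment 65 were tested and 0 passed, with a median of 0.09 and 1 unadjusted p under 0.05 (522 of 8767 over all genes). Its lowest adjusted p-values were 0.564 for CG6463 (log2 −0.72) and 0.944 for ox (log2 0.67). Of 18 genes for the upkeep of mitochondrial DNA and RNA, 14 and 15 were tested and 0 passed in either experiment. They had 2 and 0 unadjusted p-values under 0.05 by edgeR, where 2179 of 7466 and 522 of 8767 genes had one. TFAM, which packages mitochondrial DNA, had 87.4 ± 4.99 CPM with Slam antibody and 141 ± 35.5 with Dia antibody (log2 −0.69, adjusted p = 0.0740). The gene tam, for the catalytic subunit of the mitochondrial DNA polymerase, had a log2 value of 0.50 (adjusted p = 0.157). In the GFP-binder experiment bsf, whose protein binds mitochondrial mRNAs, had a log2 value of 0.83 (adjusted p = 0.980) and mtRNApol, the mitochondrial RNA polymerase, one of 0.40 (adjusted p rounding to 1).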

How the data were processed

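Bound RNA was sequenced with the TruSeq RNA kit on a HiSeq2000. Tools named in the submitters' processing notes, without their roles, are STAR 2.5.0, DESeq2, bcl2fastq 2.17.1.14 and FastQC 0.11.4. For the counting tool, the strand setting, the build and the annotation, the entry is "not given in the sources used here". Both deposited tables hold whole-number counts of reads per gene made by the authors, without normalization. Their tables of comparisons (log2 ratios and adjusted p-values) were not used, except for gene coordinates in 1 of them, of which 99.9% of 1649 genes matched by symbol share a start or end with RefSeq Release 6. mt:CoII has identical coordinates in both. The count tables have 0 unused columns.

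The quasi-likelihood test of edgeR 4.0.16 (R 4.3.3) was run on each experiment alone (robust glmQLFit, glmQLFTest, TMM, minimum mean normalized count 50 or 10, Benjamini-Hochberg over all genes kept, threshold 0.05). The difference between experiments was an interaction term of a joint fit. SE is the log2 value divided by the root of F, and intervals use the t distribution of the fit. Per-kilobase levels use RefSeq gene lengths. Chi-square over its degrees of freedom was 51.6 to 332 between replicates, so replicate spread sets the precision. Counts were also simulated: of 200 genes changed 4-fold, 82% were recovered for the antibody experiment (7466 genes) and 64.5% for the GFP-binder experiment (8767 genes). False calls were 4.65% and 7.86% of the calls. These are not rates for the members, whose variation between replicates lay at or above the 92.4th and 62.6th percentile of genes tested.

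For the replicate block of the antibody experiment, the replicate numbers in the labels were taken to pair libraries. The main fits used no block. Deviations of same-numbered libraries from their group means correlated across genes for numbers 1 to 3 (r = 0.260, 0.385 and 0.106). Slam antibody 3 correlated more strongly with Dia antibody 4 (r = 0.346) than with Dia antibody 3, so that the pairing of number 3 is uncertain.

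All protein-coding and rRNA members, the 4 tRNA genes with most counts in each experiment and the 2 genes of each nuclear list with the lowest adjusted p were to be named, apart from genes that make up small counts. The members, lists and tests were chosen with earlier results of these data known. Alternatives were RLE, total counts or nuclear genes only for scaling, DESeq2 1.42.0, other minimums, a replicate block, and each library left out. Leaving libraries out of the ratios between controls was chosen after seeing the data. Permutation tests used scipy 1.17.1, and figures matplotlib 3.10.9.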

Additional observations from a re-analysis of the deposited data

Results flagged for a closer look

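Among the 10 members with at least 10 counts over the Dia antibody group, which is the only group of 4 libraries, 1 had a library far from the others. mt:lrRNA had 2.10 CPM (33 counts) in Dia antibody 2 and 0.139, 0 and 0.140 CPM in Dia antibody 1, 3 and 4. The gap to the nearest library was 0.933 of the range, above Dixon's 95% limit for 4 samples. For normally distributed values, chance alone gives such a gap in about 1 of 20 groups, and 10 members were examined here. The 4 values rest on 2, 33, 0 and 3 counts, for which that rate need not hold. Slam antibody 2, of the same replicate number, had 1.63 CPM of mt:lrRNA (53 counts), against 0.0474 and 0.138 CPM in Slam antibody 1 and 3.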

How the results depend on the processing

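The count of members called stayed at 0 in the antibody experiment under RLE, total counts, scaling by nuclear genes, DESeq2, other minimums and each library left out. The replicate block gave 1 (mt:CoII, 1.15 on the log2 scale, adjusted p = 0.0397) among 1418 calls, against 781, and DESeq2 gave 1266 calls. In the GFP-binder experiment 1 of 36 members tested (mt:ND2, −1.16) was called without a minimum of counts, among 286 calls against 66. The share of all genes called in that fit is not given here. DESeq2 gave 196 calls and the replicate block 133. The cause was not tested. The block of the GFP-binder experiment called 0 members, and its numbers could not be judged to pair libraries, with 2 pairs at r = 0.0287 and −0.118. Signs turned with the block for mt:ND4 in the antibody experiment (−0.46) and for mt:CoII (−0.21), mt:CoIII (−0.26) and mt:Cyt-b (−0.064) in the GFP-binder experiment.

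Leaving out 1 library gave 309 to 1007 calls and 0 members (antibody) and 23 to 158 calls and 0 to 8 members (GFP-binder). Both upper values of the GFP-binder experiment come from the fit without GFP-slam 3. That fit leaves a single GFP-slam library, whose own spread cannot be estimated, so no conclusion is drawn from its calls. Leaving out any 1 wild-type library gave 0 members. With 1 library left out, the median of the protein-coding genes ran from 0.33 to 1.24 (antibody) and from −1.49 to −0.053 (GFP-binder). Signs turned in the antibody experiment for mt:ND1 (−0.36 to 0.23; positive without Dia antibody 3, Slam antibody 1 or Slam antibody 3) and mt:CoI (−0.20 to 0.82; negative without Slam antibody 2). In the GFP-binder experiment they turned without GFP-slam 1 for mt:CoI (−1.12 to 0.39), mt:ND4 (−1.72 to 0.17), mt:ND4L (−3.45 to 0.034), mt:tRNA:K (−1.38 to 0.12), mt:tRNA:Y (−4.42 to 0.55) and mt:tRNA:C (−2.64 to 0.47). They turned without GFP-slam 3 for mt:CoII (−1.02 to 0.73), mt:CoIII (−1.17 to 0.68) and mt:Cyt-b (−0.96 to 0.96), and without wild type 2 for mt:CoII (−0.00389) and mt:CoIII (−0.032). The difference between experiments had 0 calls among members under RLE, total counts, scaling by nuclear genes, no minimum, and each antibody or wild-type library left out. DESeq2, filterByExpr and the replicate block were not run for it.

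Without rRNA and tRNA genes the share in wild type 1 and 3 was 0.392% and 0.353%. Lengths less 100 bases raised the level in wild type to 586 (mt:CoII), 7.06 (mt:ATPase8), 1012 (mt:CoIII), 87.7 (mt:ND3), 51.9 (mt:ND4L) and 16.8 (mt:ND6) CPM per kb. Coding lengths equal the gene lengths here and gave no other value. The antibody libraries limit what can be said of rRNA, tRNA and most complex I genes, which had few or 0 counts there.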
